A study of Mus musculus with 4 samples.

Results

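The 34 genes described here encode the machinery that takes up glucose, splits it to pyruvate and exports it as lactate, together with a set of genes that cells switch on when oxygen is scarce. They were chosen by name: 2 glucose transporters, 15 enzymes of the glycolytic chain, 6 kinases that control the flow into or out of it, 4 genes of lactate formation and transport, and 7 genes of the hypoxia response. All 34 had exactly 1 row each among the 38921 gene intervals of the deposited tables, and all 34 passed the filter on low counts. The level of each was compared between pancreatic fibroblasts of KPC mice and of wild type mice.

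Glycolysis turns glucose into pyruvate in the cytosol, and most of its steps can be carried by several isozymes, near copies of an enzyme encoded by different genes with different kinetics and tissue distribution. Pyruvate either enters mitochondria through the pyruvate dehydrogenase complex, which the Pdk kinases switch off, or is reduced to lactate and leaves the cell through monocarboxylate transporters. When oxygen is low, hypoxia-inducible factors (HIF) escape hydroxylation by the Egln enzymes and raise the transcription of many of these genes. Fibroblasts of solid tumours can show high rates of glycolysis and lactate release.

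RNA was taken from cultured pancreatic fibroblasts in 4 libraries, 2 from wild type mice and 2 from KPC mice, all of mixed strain and grown in the same serum-containing medium after gravity separation. KPC mice are widely used to model pancreatic cancer and carry Cre driven from the Pdx1 promoter, that is, in the pancreatic epithelial lineage; the labels give the name alone, with no age, allele or oxygen tension. The labels call the libraries biological replicates without naming animals or cultures, so p-values speak only of the spread among these 4, which may be technical. Counts summed to between 22302141 (wild type 2) and 68312367 (KPC 2), and levels are given as CPM, that is, counts scaled to a common library total with edgeR's TMM factors.

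The labelled cell type was checked against markers. The 11 fibroblast markers summed to 14661 and 15629 CPM in wild type against 14335 and 16271 CPM in KPC, led by Col1a1, Acta2 and Col1a2. Single fibroblast markers moved in both directions, with log2 fold changes from -0.80 to 1.41. Of the 11, 2 were higher and 2 lower in both KPC libraries (20.6% and 20.5% of all tested rows), and 7 overlapped. All 17 macrophage and myeloid markers were higher in both KPC libraries, where 20.6% of all tested rows were. Their sums were 108 and 330 CPM in wild type against 1300.45 and 2591 CPM in KPC. None of the 17 was at 0 counts in any library. Endothelial markers stood apart in wild type 1 (996 CPM, with 158 CPM in wild type 2, 42.5 CPM in KPC 1 and 94.4 CPM in KPC 2), and endocrine markers in wild type 2 (955 CPM, against at most 3.92 CPM elsewhere). Epithelial markers summed to 32.0 and 438 CPM in wild type against 1193 and 457 CPM in KPC. In bulk RNA, fewer cells of a type and less RNA per cell cannot be told apart, and the part of these other cells in the results below was not tested unless a value is given.

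Promoter sequence is shown first for the members whose levels separated the groups with the smallest p in each direction: the lactate transporter gene Slc16a1, the aldolase gene Aldoc and the kinase gene Pdk1 on the higher side in KPC, and the kinase genes Pdk4 and Pdk2 on the lower side. Each run holds 250 bases before and 50 bases after the transcription start nearest to the 5′ end of the deposited interval, 5′ to 3′ on the gene's strand, from RefSeq on GRCm38.p6. Capitals mark the letters ACGTG or GCGTG on either strand (CACGT and CACGC when read on the strand shown), the core that HIF is known to bind. CACGTG holds ACGTG on both strands and counts as 2 matches.
Slc16a1 (chr3:104638414-104638713, plus strand): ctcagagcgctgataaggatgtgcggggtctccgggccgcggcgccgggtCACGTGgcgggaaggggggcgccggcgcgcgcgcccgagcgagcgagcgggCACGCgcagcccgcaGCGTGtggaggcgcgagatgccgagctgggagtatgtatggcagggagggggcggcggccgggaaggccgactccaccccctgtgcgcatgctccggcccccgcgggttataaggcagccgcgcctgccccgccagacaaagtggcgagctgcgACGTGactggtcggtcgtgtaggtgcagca
Aldoc (chr11:78322823-78323122, plus strand): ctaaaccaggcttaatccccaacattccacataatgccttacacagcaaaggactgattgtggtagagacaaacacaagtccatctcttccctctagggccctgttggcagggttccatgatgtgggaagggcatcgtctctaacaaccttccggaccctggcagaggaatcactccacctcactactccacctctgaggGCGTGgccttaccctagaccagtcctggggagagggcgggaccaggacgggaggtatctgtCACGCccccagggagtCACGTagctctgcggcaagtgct
Pdk1 (chr2:71872974-71873273, plus strand): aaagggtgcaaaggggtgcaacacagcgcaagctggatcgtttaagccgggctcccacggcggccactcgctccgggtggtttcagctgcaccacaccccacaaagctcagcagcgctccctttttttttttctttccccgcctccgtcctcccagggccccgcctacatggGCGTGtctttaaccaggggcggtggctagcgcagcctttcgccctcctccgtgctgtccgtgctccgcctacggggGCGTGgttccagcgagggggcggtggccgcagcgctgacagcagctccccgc
Pdk4 (chr6:5496229-5496528, minus strand): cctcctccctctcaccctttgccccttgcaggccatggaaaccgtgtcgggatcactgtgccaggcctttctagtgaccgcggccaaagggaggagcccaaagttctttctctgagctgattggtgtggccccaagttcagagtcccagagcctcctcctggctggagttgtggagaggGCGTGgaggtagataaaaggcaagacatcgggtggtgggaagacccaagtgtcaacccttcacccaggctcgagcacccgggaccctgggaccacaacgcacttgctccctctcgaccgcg
Pdk2 (chr11:95041322-95041621, minus strand): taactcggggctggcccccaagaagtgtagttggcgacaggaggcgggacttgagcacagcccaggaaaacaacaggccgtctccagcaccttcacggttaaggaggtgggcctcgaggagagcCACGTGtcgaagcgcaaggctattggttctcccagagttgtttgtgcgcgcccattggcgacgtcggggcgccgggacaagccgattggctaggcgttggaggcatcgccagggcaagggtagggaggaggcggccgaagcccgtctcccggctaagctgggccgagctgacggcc

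Slc16a1 held 5 such matches, 3 of them ACGTG, Aldoc held 3, Pdk1 and Pdk2 held 2 each and Pdk4 held 1. A window was found for 32 of the 34 genes (Slc2a3 and Ndrg1 had none), and 26 of the 32 (81.2%) held at least 1 match, against 43.8% of all 32851 promoter windows of the same length. The member windows were also richer in CpG, with a median of 20 against 7 over all windows. Among the 19 members with a window that were higher in both KPC libraries 16 held a match, and among the other 13 members 10 did. Ldha had the most, 7. A match is a description of the letters and not a binding site.

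Most of these genes had more reads in the KPC libraries. In 20 of 34 members both KPC libraries lay above the wild type pair, as they did in 20.6% of all 23046 tested rows, and in 4 of 34 both lay below, where 20.5% of all tested rows did. The log2 fold change was positive for 27 of the 34, where 48.8% of tested rows were positive, and its median was 0.43 over the members and -0.01 over all tested rows. The members ran from -1.36 (Pdk4) to 2.27 (Aldoc). None of the 34 passed edgeR's quasi-likelihood test, with adjusted p from 0.211 to 0.994, and 0% of all rows passed in either direction. At an unadjusted edgeR p under 0.05 there were 8 members higher, where 4.73% of rows were, and 3 lower, where 3.94% of rows were. limma voom called 0 members, and DESeq2 called 3 higher (Slc16a1, Aldoc and Pdk1) and 0 lower, where it called 1.44% and 1.28% of rows. An exact permutation test of 2 libraries against 2 cannot go below 0.333.

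**Figure D1:**
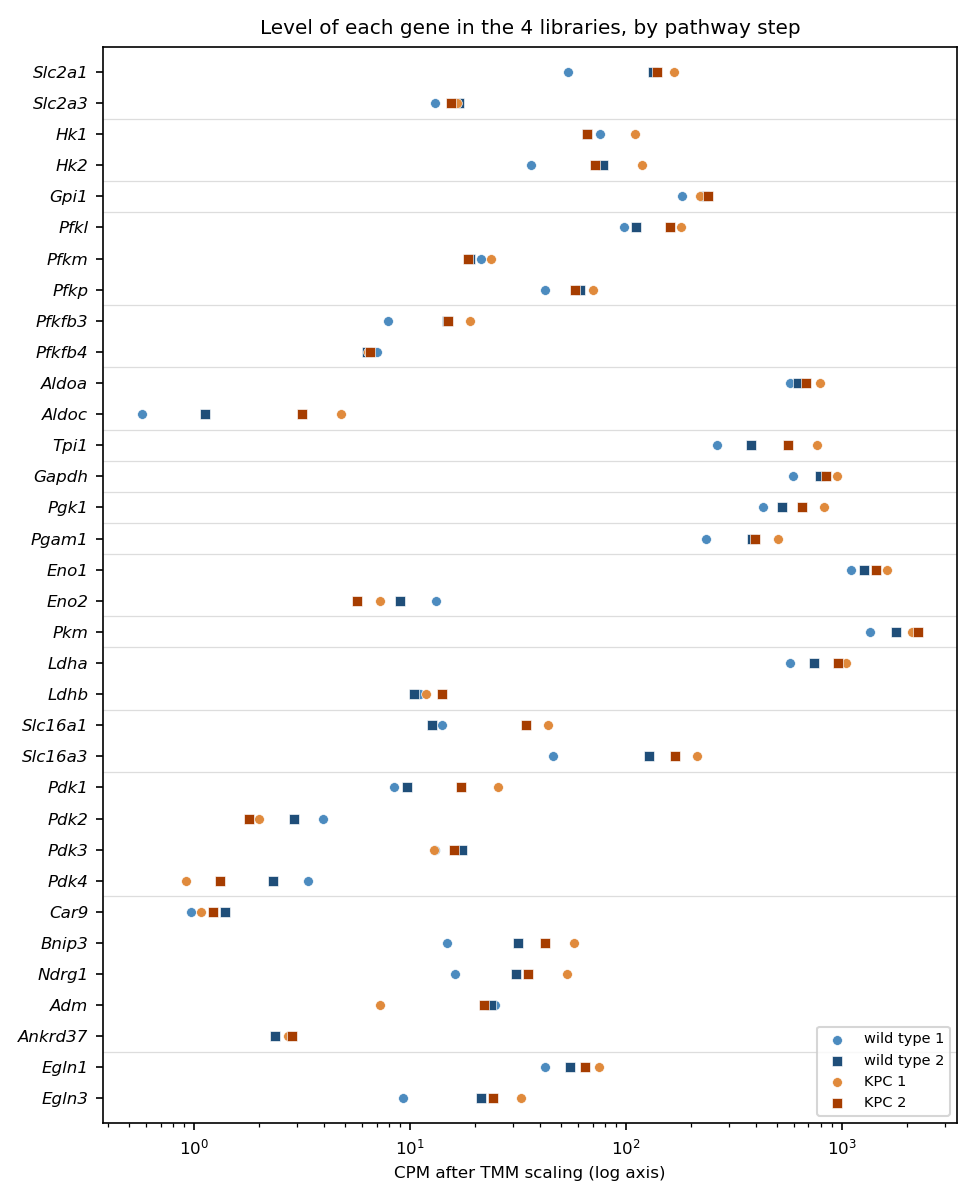
Level of each of the 34 genes in the 4 libraries, in CPM after TMM scaling on a log axis, with genes in pathway order and grey lines between steps; each point is 1 library. KPC points lie to the right of wild type points for 20 genes and to the left for Eno2, Pdk2, Pdk4 and Adm.

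The 4 libraries formed a recurring order. Wild type 1 was the lowest, wild type 2 the next and both KPC libraries the highest in 18 of 34 members, an order that 12.2% of tested rows had. Wild type 2 exceeded wild type 1 in 24 of the 34 (48.4% of tested rows), and KPC 1 exceeded KPC 2 in 25 of the 34 (49.7% of tested rows). Taking each gene's log2 CPM relative to its own mean, the median over the members was -0.44 and -0.03 for wild type 1 and 2, and 0.34 and 0.15 for KPC 1 and 2. The summed epithelial and ductal markers had the same order as these medians, with wild type 1 lowest (32.0 CPM), then wild type 2 (438 CPM), KPC 2 (457 CPM) and KPC 1 (1193 CPM), and their part in the members' values was not tested. The summed macrophage markers were also above wild type in both KPC libraries, at 1300.45 CPM in KPC 1 and 2591 CPM in KPC 2. The part of macrophages in the members' values was not tested either. The size of the difference rested on which wild type library was used: without wild type 1 the median over the members was 0.25, and without wild type 2 it was 0.65.

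**Figure D2:**
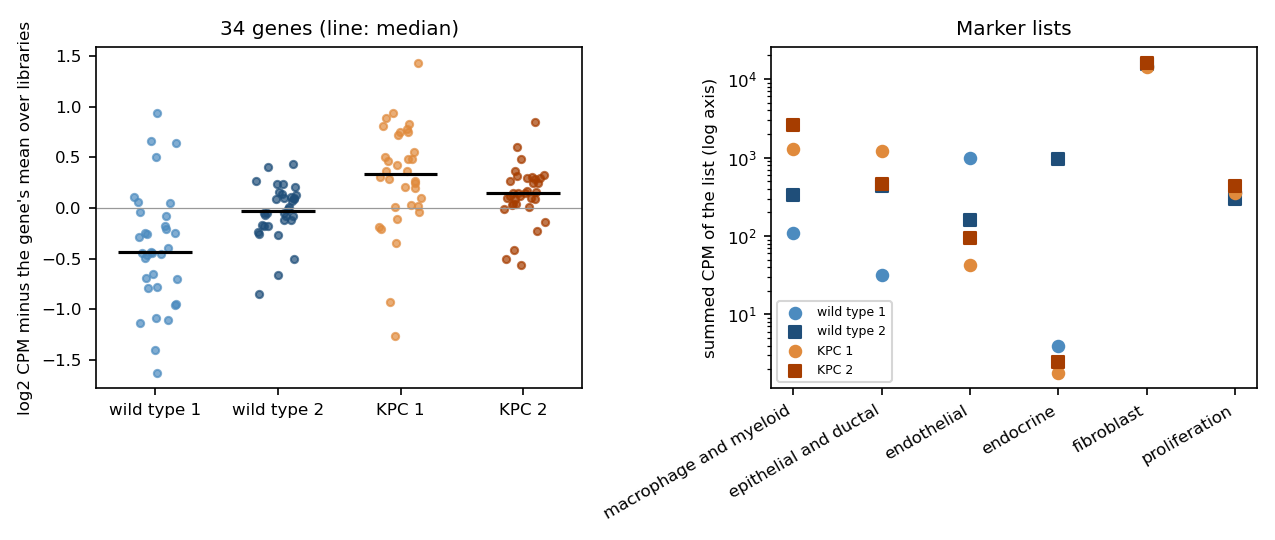
Left, log2 CPM of each of the 34 genes minus its mean over the 4 libraries, 1 point per gene, with the median as a line (-0.44, -0.03, 0.34 and 0.15 from left to right). Right, summed CPM of 6 marker lists in each library on a log axis; epithelial markers have the order of the medians on the left, macrophage markers are highest in KPC 2, and endocrine markers stand apart in wild type 2.

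Glucose enters fibroblasts mainly through the transporter GLUT1, encoded by Slc2a1. Slc2a1 stood at 53.6 and 134 CPM in wild type against 167 and 140 CPM in KPC. Both KPC values were the higher, but wild type 2 lay far closer to them than to wild type 1, and the log2 fold change of 0.71 ± 0.46 (SE, n = 2 each, edgeR adjusted p = 0.704) was 0.20 without wild type 1 and 1.52 without wild type 2. A row named Gm12868 overlaps 3581 bases of the Slc2a1 interval and held 2283, 2533, 7902 and 7687 counts against 2817, 2991, 9814 and 9468 for Slc2a1, wild type libraries first, and whether these are the same reads cannot be told without strand. Slc2a3, which encodes the high-affinity transporter GLUT3, had overlapping groups at 13.0 and 16.8 CPM in wild type against 16.5 and 15.4 CPM in KPC. Per kilobase of exon, Slc2a1 was the more abundant of the pair in every library and made up 83.4% and 90.6% of the pair's signal in wild type and 92.5% and 91.7% in KPC.

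Hexokinases trap glucose in the cell by phosphorylating it. Hk2, the inducible form, stood at 36.2 and 78.6 CPM in wild type against 119 and 72.2 CPM in KPC. Hk1, the housekeeping form, stood at 75.7 and 65.7 CPM in wild type against 110 and 66.1 CPM in KPC. Both genes overlapped between groups, because KPC 1 alone exceeded both wild type libraries. The log2 fold change of Hk2 was 0.73, and 0.28 without wild type 1 or 1.40 without wild type 2. The Hk2 share of the pair, per kilobase of exon, was 25.0% in wild type 1 and between 42.9% and 45.5% in the other 3 libraries, so that the share set wild type 1 apart and not the KPC group. Gpi1, the isomerase of the next step, also overlapped, at 181 and 230.4 CPM in wild type against 219 and 240.4 CPM in KPC.

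Phosphofructokinase commits sugar to glycolysis, and its liver-type gene separated the groups. Pfkl stood at 98.1 and 112 CPM in wild type against 180 and 161 CPM in KPC. The wild type values lay close together and well below the KPC values, with a log2 fold change of 0.70 ± 0.18 (SE, n = 2 each; edgeR adjusted p = 0.449) that stayed between 0.61 and 0.80 when any library was left out. The muscle-type gene Pfkm (21.3 and 18.9 CPM in wild type against 23.8 and 18.6 CPM in KPC) and the platelet-type gene Pfkp (42.1 and 61.2 CPM in wild type against 70.4 and 58.1 CPM in KPC) overlapped. Per kilobase of exon the share of Pfkl among the 3 genes was 60.4% and 58.7% in wild type and 65.9% and 68.0% in KPC. Pfkm and Pfkp each overlap a neighbouring gene (Senp1 by 1155 bases and Pitrm1 by 371 bases).

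The enzyme PFKFB makes the small molecule that activates phosphofructokinase, and its isozyme Pfkfb3 stood at 7.86 and 14.9 CPM in wild type against 18.9 and 15.0 CPM in KPC. Wild type 2 and KPC 2 were nearly level, and the log2 fold change of 0.58 was 0.19 without wild type 1. Pfkfb4 overlapped between groups, at 7.06 and 6.31 CPM in wild type against 6.36 and 6.49 CPM in KPC.

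Aldolase splits the sugar, and its minor isozyme gene showed the largest fold of the 34. Aldoc, the brain-type aldolase, stood at 0.571 and 1.12 CPM in wild type, on 30 and 25 counts, against 4.78 and 3.17 CPM in KPC, on 281 and 215 counts. The groups did not overlap, and the mean was 4.71-fold higher in KPC, with a log2 fold change of 2.27 ± 0.46 (SE, n = 2 each; edgeR adjusted p = 0.362; DESeq2 adjusted p = 0.00371). The ubiquitous isozyme gene Aldoa stood at 575 and 629 CPM in wild type against 789 and 686 CPM in KPC, a log2 fold change of 0.29 ± 0.18. Aldoc was a trace of the pair, at 0.0804% and 0.144% of its signal per kilobase of exon in wild type and 0.488% and 0.373% in KPC.

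The enzymes of the lower chain were all higher in both KPC libraries, except the neuronal enolase, where 20.6% of all tested rows were higher. Tpi1, triosephosphate isomerase, stood at 264 and 380 CPM in wild type against 771 and 563 CPM in KPC. Its mean was 2.07-fold higher in KPC, with a log2 fold change of 1.05 ± 0.28 (SE, n = 2 each; edgeR adjusted p = 0.462), and was 0.81 without wild type 1 or KPC 1. Pgk1, which makes the first ATP of the chain, stood at 431 and 526 CPM in wild type against 829 and 656 CPM in KPC, a log2 fold change of 0.63 ± 0.21 (edgeR adjusted p = 0.541). The neighbouring steps differed less. Gapdh, often used as a reference gene, stood at 596 and 788 CPM in wild type against 953 and 840.2 CPM in KPC. The mutase gene Pgam1 stood at 234 and 385 CPM in wild type against 505 and 398 CPM in KPC, so that wild type 2 and KPC 2 were nearly equal. Pkm, pyruvate kinase, was the gene with the most counts of the 34 and stood at 1356 and 1774 CPM in wild type against 2112 and 2257 CPM in KPC; its isoforms cannot be told apart in a count per gene.

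The enolase isozymes differed in direction. Eno1, the ubiquitous form, stood at 1105 and 1272 CPM in wild type against 1613 and 1443 CPM in KPC. Eno2, the neuronal form, stood at 13.2 and 8.99 CPM in wild type against 7.26 and 5.66 CPM in KPC, a log2 fold change of -0.79 ± 0.29 (SE, n = 2 each; edgeR adjusted p = 0.571). Neither gene overlapped between groups, with Eno1 higher and Eno2 lower in KPC. Eno2 made up 0.861% and 0.51% of the enolase signal per kilobase of exon in wild type and 0.325% and 0.284% in KPC. The Schwann and neural markers were also lower in KPC, at a sum of 26.7 and 3.67 CPM in wild type against 1.17 and 0.84 CPM in KPC; their part in the Eno2 values was not tested.

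**Figure D3:**
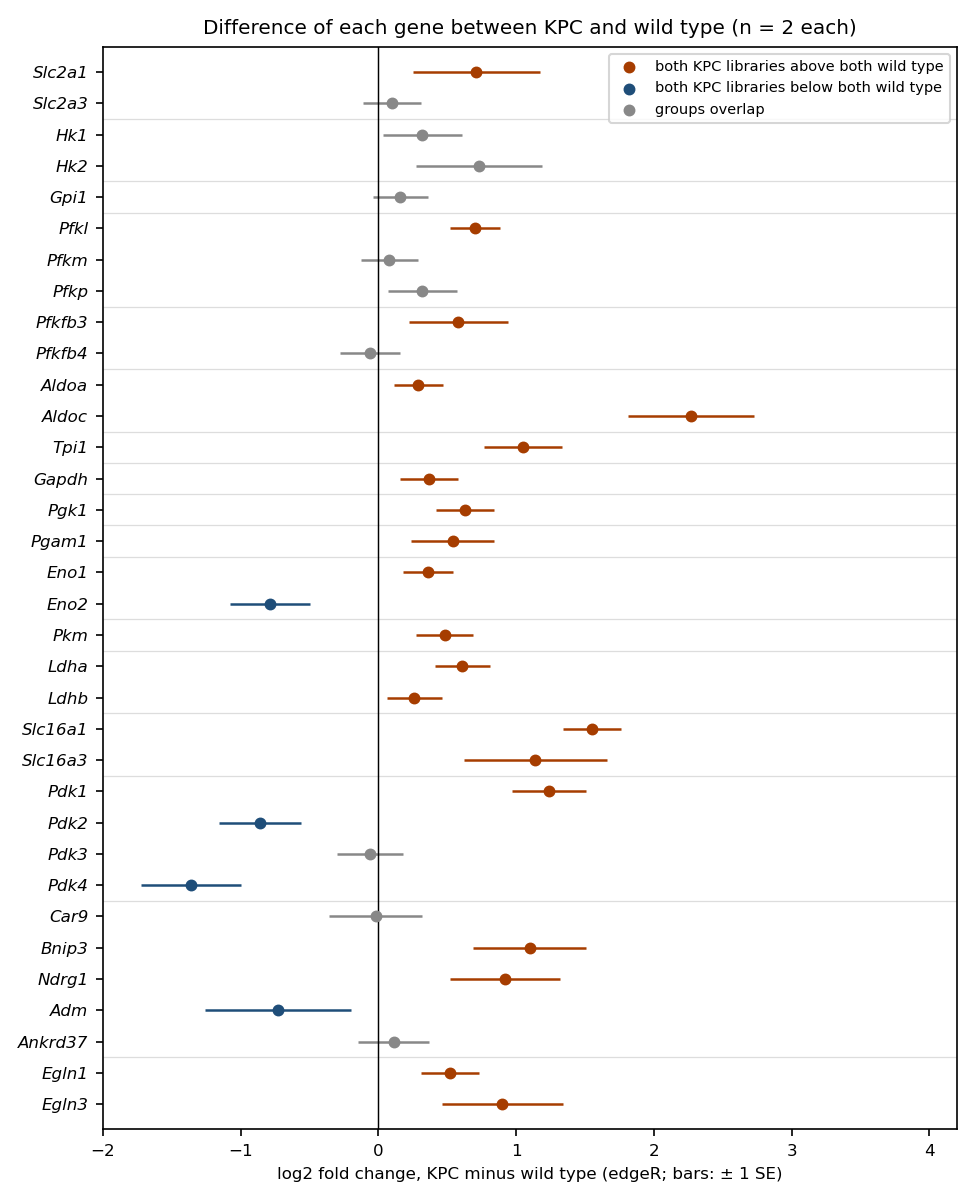
Log2 fold change of each of the 34 genes between KPC and wild type from edgeR, with bars of 1 SE and genes in pathway order; red points have both KPC libraries above both wild type libraries (20 genes), blue points both below (4 genes), and grey points overlap (10 genes). Aldoc (2.27) and Slc16a1 (1.55) lie farthest right and Pdk4 (-1.36) farthest left.

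Several abundant enzymes have processed pseudogenes, and how reads with several matches were counted is not given in the sources used here. The share of 37-base stretches of the gene's own transcripts that also occur in transcripts of other genes was 68.2% for Pgk1, 67.0% for Bnip3, 61.2% for Gapdh, 52.2% for Eno1, 41.9% for Pgam1, 31.9% for Gpi1 and 30.6% for Pkm. It was 29.0% for Ldhb, 18.2% for Ldha, 16.0% for Ankrd37, 15.7% for Pfkp and 13.6% for Ndrg1. Aldoa had 12.8%, Tpi1 12.6%, Pfkm 9.18% and Car9 6.23%. For Slc16a1, Slc16a3, Aldoc, Pdk2, Pdk3, Pfkfb4, Slc2a3, Hk2, Egln1 and Egln3 it was 0%. Of the 18 members with a share under 5%, 9 were higher in both KPC libraries and 4 lower, with a median log2 fold change of 0.55. Of the 16 others, 11 were higher and 0 lower, with a median of 0.37. Over all tested rows, 20.6% were higher and 20.5% lower.

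In the block of lactate formation and export, 4 of 4 members were higher in both KPC libraries, where 20.6% of all tested rows were. Slc16a1 (chr3:104638669-104658462 in mm10, the whole gene interval), which encodes the monocarboxylate transporter MCT1, stood at 14.1 and 12.6 CPM in wild type against 43.6 and 34.5 CPM in KPC. The wild type libraries lay close together and the KPC libraries far above them. The mean was 2.92-fold higher in KPC, with a log2 fold change of 1.55 ± 0.21 (SE, n = 2 each; edgeR adjusted p = 0.211). That adjusted p was the smallest of the whole table, shared by 103 rows, and did not pass. The DESeq2 adjusted p was 1.71e-06. Leaving out any library kept its log2 fold change between 1.38 and 1.70.

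Slc16a3, which encodes MCT4, the exporter of highly glycolytic cells, stood at 45.7 and 128 CPM in wild type against 214 and 168 CPM in KPC. Here the wild type libraries differed 2.8-fold, and wild type 2 approached KPC 2. The log2 fold change was 1.14 ± 0.52 (SE, n = 2 each; edgeR adjusted p = 0.614). It was 0.58 without wild type 1 and 2.07 without wild type 2, where Slc16a3 was the 1 member that passed edgeR (adjusted p = 0.0296) among 1.79% of rows called higher there (1.69% lower, with 0 members); without wild type 1, edgeR called 0.0209% of rows lower and 0 members. Per kilobase of exon, Slc16a3 was the more abundant of the pair in every library, with 76.3% and 91.0% of its signal in wild type and 83.0% and 82.9% in KPC. The gene of their shared chaperone basigin, Bsg, did not follow, at 407 and 657 CPM in wild type against 531 and 508 CPM in KPC.

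Ldha, the isozyme that favours lactate formation, stood at 572 and 743 CPM in wild type against 1043 and 961 CPM in KPC, without overlap. Its log2 fold change was 0.61 ± 0.20 (SE, n = 2 each; edgeR adjusted p = 0.541), and 0.43 without wild type 1. Ldhb, the heart-type isozyme, stood at 11.2 and 10.4 CPM in wild type against 11.9 and 14.0 CPM in KPC. Per kilobase of exon, Ldha made up between 97.3% and 98.4% of the pair in all 4 libraries, and the groups overlapped in this share.

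The Pdk kinases, which shut the pyruvate dehydrogenase complex and so keep pyruvate out of mitochondria, split by isozyme. Pdk1, known as a hypoxia-inducible form, stood at 8.41 and 9.66 CPM in wild type against 25.4 and 17.1 CPM in KPC, a log2 fold change of 1.24 ± 0.27 (SE, n = 2 each; edgeR adjusted p = 0.374; DESeq2 adjusted p = 0.0132). Pdk2, the widely expressed form, stood at 3.94 and 2.91 CPM in wild type against 1.99 and 1.78 CPM in KPC, a log2 fold change of -0.86 ± 0.30 (edgeR adjusted p = 0.541). Pdk4, known to be induced by fasting and fatty acids, stood at 3.37 and 2.33 CPM in wild type against 0.918 and 1.31 CPM in KPC, a log2 fold change of -1.36 ± 0.36 (edgeR adjusted p = 0.474). Pdk1 was above, and Pdk2 and Pdk4 below, in both KPC libraries. Pdk3 overlapped, at 13.0 and 17.3 CPM in wild type against 13.0 and 16.0 CPM in KPC. Each of these directions for Pdk1, Pdk2 and Pdk4 was kept when any library was left out, between 0.93 and 1.49 for Pdk1, -1.06 and -0.62 for Pdk2, and -1.64 and -1.05 for Pdk4.

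Within the kinase family, Pdk3 had the largest share in every library per kilobase of principal exons, but not on other scales: in CPM, not divided by length, and per interval length Pdk1 exceeded Pdk3 in both KPC libraries. Per kilobase of exon, the share of Pdk1 was 15.4% and 15.5% in wild type and 40.3% and 27.4% in KPC. The share of Pdk2 was 16.7% and 10.8% in wild type and 7.27% and 6.59% in KPC, and that of Pdk4 was 9.2% and 5.56% in wild type and 2.16% and 3.12% in KPC. Pdk3 held 58.7% and 68.1% in wild type and 50.3% and 62.9% in KPC. Counting error (Wilson interval at 95%, counting error only) was at most 3.15 percentage points to either side for these 4 genes. A list of 8 genes, the target complex with its phosphatases and Pcx, had 4 that were higher in both KPC libraries and 0 that were lower (20.6% and 20.5% of all tested rows), with log2 fold changes from -0.07 to 0.52. Pcx, pyruvate carboxylase, was the 1 of them with an unadjusted edgeR p under 0.05, at 28.7 and 27.3 CPM in wild type against 39.4 and 36.3 CPM in KPC. Dld and Dlat, subunits of the complex, had log2 fold changes of 0.19 and 0.18.

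**Figure D4:**
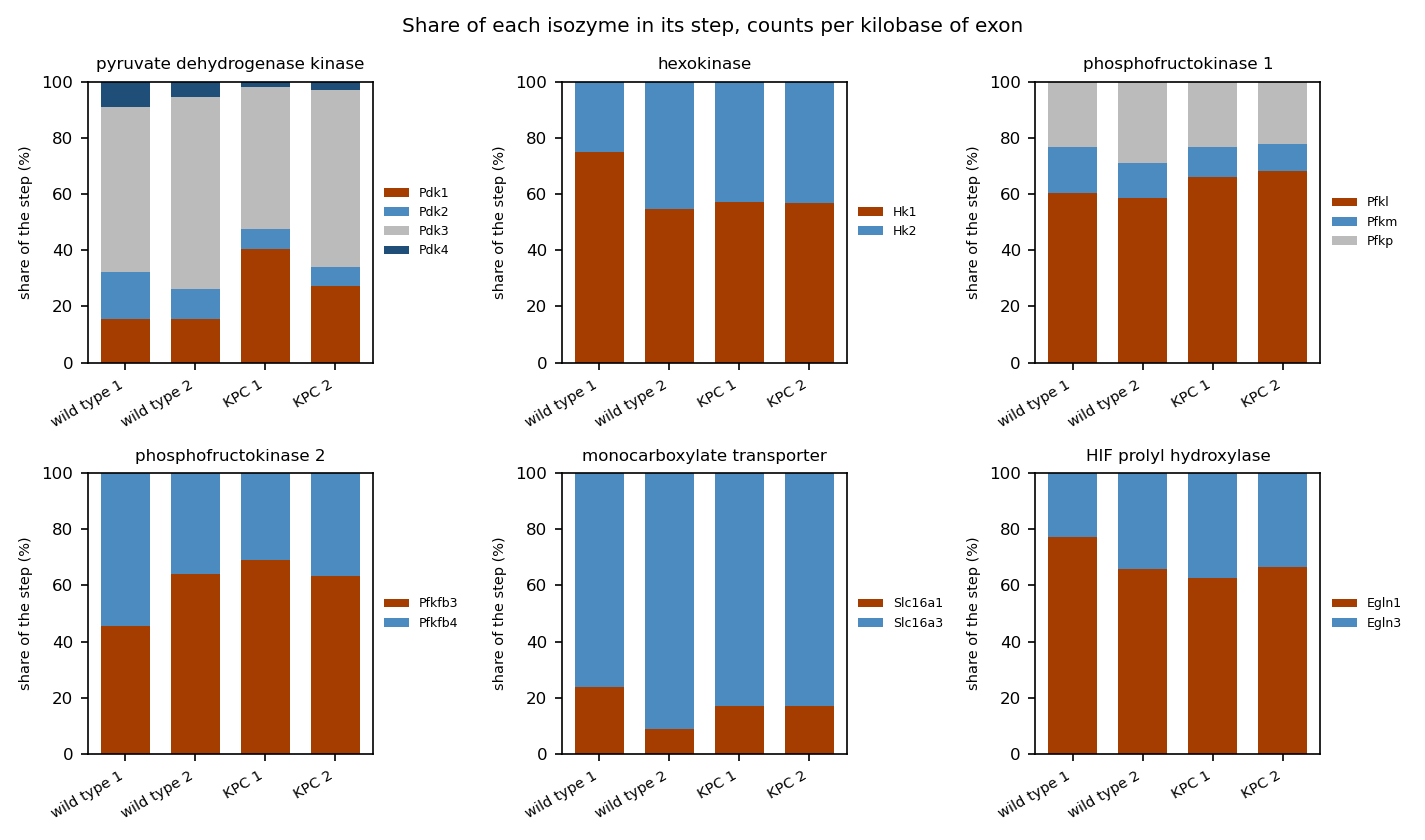
Share of each isozyme in its step in percent, from counts per kilobase of principal exons, as stacked bars that start at 0, for 6 steps in each of the 4 libraries. The share of Pdk1 is 15.4% and 15.5% in wild type and 40.3% and 27.4% in KPC, whereas the hexokinase, phosphofructokinase 2, monocarboxylate transporter and prolyl hydroxylase shares overlap between groups.

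The hypoxia-response members differed among themselves. In both KPC libraries 4 of 7 were higher and 1 lower, where 20.6% and 20.5% of all tested rows were. Bnip3, a mitophagy receptor gene, stood at 14.9 and 31.6 CPM in wild type against 57.3 and 42.2 CPM in KPC, a log2 fold change of 1.10 ± 0.41 (SE, n = 2 each; edgeR adjusted p = 0.571). Ndrg1, a stress-responsive gene, stood at 16.1 and 30.9 CPM in wild type against 53.6 and 35.0 CPM in KPC; a row named Gm17035 overlaps 1500 bases of it and held 597, 509, 2258 and 1739 counts against its 847, 690, 3151 and 2374. In both genes wild type 2 lay between wild type 1 and KPC, and their log2 fold changes without wild type 1 were 0.66 and 0.52. The genes of the oxygen-sensing prolyl hydroxylases, which are themselves HIF targets, had the same order. Egln3 stood at 9.25 and 21.3 CPM in wild type against 32.8 and 24.2 CPM in KPC, with a log2 fold change of 0.90 that was 0.42 without wild type 1. Egln1 stood at 42.3 and 55.1 CPM in wild type against 74.9 and 64.8 CPM in KPC.

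The other 3 hypoxia members did not follow. Car9, the membrane carbonic anhydrase often used as a hypoxia marker, stood at 0.97 and 1.39 CPM in wild type against 1.07 and 1.22 CPM in KPC, on 31 to 83 counts, with a log2 fold change of -0.02 ± 0.34 (SE, n = 2 each). A row named Gm12454, with 17 to 67 counts, overlaps 1781 bases of it. Ankrd37 stood at 2.78 and 2.37 CPM in wild type against 2.72 and 2.85 CPM in KPC. The gene Lrp2bp overlaps 564 bases of Ankrd37 and held 87, 30, 62 and 60 counts against its 146, 53, 160 and 193, wild type libraries first. Ufsp2, with 411 to 1161 counts, overlaps 56 bases of it. Adm, which encodes the vasodilator peptide adrenomedullin, stood at 24.7 and 23.7 CPM in wild type against 7.24 and 21.9 CPM in KPC, so that KPC 2 was only slightly below wild type and KPC 1 far below: the log2 fold change of -0.73 ± 0.53 was -0.14 without KPC 1. The spread of Adm between the KPC libraries was the 1 case among the 34 members where they differed by 2-fold or more.

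Other genes of the same pathways, from lists that hold none of the 34, gave a mixed picture. Of 82 such genes 80 were tested, and 0 passed edgeR or limma voom. At an unadjusted edgeR p under 0.05, 8 were higher and 1 was lower, where 4.73% and 3.94% of all tested rows were. DESeq2 called 1 higher (Hilpda), near the 1.44% of all rows that it called. Both KPC libraries were higher in 23 of the 80 (28.7%) and lower in 11, where 20.6% and 20.5% of all tested rows were, and the median log2 fold change was 0.17. Among the hypoxia-inducible factors themselves, Hif1a stood at 44.4 and 94.1 CPM in wild type against 202 and 159 CPM in KPC (log2 fold change 1.38 ± 0.40, edgeR adjusted p = 0.514), in the same order of libraries as Bnip3 and Slc16a3. Epas1, which encodes HIF-2alpha, overlapped, at 28.8 and 6.08 CPM in wild type against 10.1 and 12.7 CPM in KPC, with the highest value in the library with the most endothelial markers. Hif3a was lower in both KPC libraries (0.97 and 2.06 CPM against 0.714 and 0.855 CPM) and Siah2 higher (8.54 and 8.72 CPM against 10.7 and 10.7 CPM).

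Of 30 other hypoxia-inducible targets, 8 (26.7%) were higher and 3 lower in both KPC libraries, the first near the 20.6% of all tested rows that were higher and the second under the 20.5% that were lower. Hilpda, a lipid droplet protein gene, stood at 6.30 and 12.7 CPM in wild type against 38.5 and 20.95 CPM in KPC (log2 fold change 1.65 ± 0.47, edgeR adjusted p = 0.503, DESeq2 adjusted p = 0.0434), and the glycoprotein hormone gene Stc2 at 6.60 and 10.1 CPM in wild type against 14.8 and 18.02 CPM in KPC. Lox, the collagen crosslinking enzyme gene, was lower in both KPC libraries, at 751 and 1177 CPM in wild type against 356 and 508 CPM in KPC (log2 fold change -1.16 ± 0.31). Vegfa, the angiogenic factor gene, overlapped, at 54.4 and 123 CPM in wild type against 143 and 112 CPM in KPC.

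Among 24 other glycolysis and branch genes, 23 were tested and 7 (30.4%) were higher and 3 lower in both KPC libraries, where 20.6% and 20.5% of all tested rows were. Hk3, a hexokinase typical of myeloid cells, stood at 0.133 and 2.06 CPM in wild type against 8.01 and 17.7 CPM in KPC, the same order of libraries as the macrophage markers, whose 3 most counted genes are Lyz2, Ctss and C1qa. Tkt, transketolase of the pentose phosphate pathway, stood at 131 and 194 CPM in wild type against 264 and 253 CPM in KPC, and the phosphoglucomutase gene Pgm2 at 37.8 and 50.4 CPM in wild type against 95.6 and 59.6 CPM in KPC. Of 10 other sugar and monocarboxylate carriers 9 were tested, and 0 were higher and 3 lower in both KPC libraries (20.6% and 20.5% of all tested rows), with log2 fold changes from -0.44 (Mpc2, a subunit of the mitochondrial pyruvate carrier) to -0.01; Slc2a6 and Slc2a8 lay between, at -0.27 and -0.21. The sum of the proliferation markers overlapped, at 368 and 292 CPM in wild type against 350.3 and 432 CPM in KPC. Of these 10 genes, 4 were higher and 0 lower in both KPC libraries (20.6% and 20.5% of all tested rows). Their median log2 fold change was 0.26.

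Compared per kilobase of exon, the order of levels along the pathway was the same kind in both groups. The mean in wild type was highest for Pkm (644 CPM per kilobase), Eno1 (586), Gapdh (463) and Ldha (356), and in KPC for the same 4 genes (898, 754, 600.2 and 543 CPM per kilobase). The entry steps were far lower, at 28.7 CPM per kilobase for Slc2a1, 18.4 for Hk1 and 28.1 for Pfkl in wild type, and at 47.0, 22.9 and 45.6 in KPC. Tpi1 averaged 200.1 in wild type and 415 in KPC, and Pgk1 262 and 407. Set against each other within KPC, Tpi1 (480 and 350.1 CPM per kilobase) and Pgk1 (454 and 359 CPM per kilobase) overlapped. As given above, each of these genes was higher in both KPC libraries than in wild type.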

How the data were processed

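Libraries of poly-A RNA were made from 2 wild type and 2 KPC samples, per the labels' protocols. Tools named in the submitters' processing notes are TopHat2 2.0.3, bedtools, SAMtools 0.1.18 and FastQC 0.10.1, with mm10/GRCm38; their settings are not given in the sources used here. The authors deposited for each library a raw read count per gene interval, the number of bases covered and the fraction of the interval covered, in 38921 rows without a header; the deposited covered bases gave the read length, and the fraction was not tested. A read length of 37 bases was taken from rows with a count of 1, of which 82.8% covered that length. The handling of strand and of reads with several matches is not given there either, so overlapping genes and genes with pseudogenes are uncertain.

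The whole table was fitted with edgeR 4.0.16 in R 4.3.3 (filterByExpr, minimum count 10, TMM factors from 0.988 to 1.02, two-sided quasi-likelihood test, Benjamini-Hochberg adjustment over 23046 rows at 0.05). The common dispersion was 0.103 on 2 residual degrees of freedom. Each standard error was obtained as the size of the unshrunken log2 fold change divided by the root of F. Alternatives were other scaling factors, other filters, DESeq2 1.42.0, voom in limma 3.58.1, a block on replicate number and fits leaving out 1 library at a time; the scripts were tested on simulated data. Exon lengths are principal transcripts of GENCODE M21 (GRCm38), and other lengths were tried. Counts are per whole gene interval and can include reads outside exons, which limits levels and shares per kilobase of exon. Overlap of 37-base stretches was counted over GENCODE M21 transcripts. Promoters are from RefSeq GRCm38.p6.

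The members, lists and tests were chosen with earlier results of these data known, and no test of a list was made. The 82 other pathway genes and 74 marker genes were taken from fixed lists; those named were the 3 of smallest edgeR p per pathway list with Hif1a, Epas1, Vegfa and Bsg, and of the marker lists up to 3 with the most counts. All 156 entries had a row (Adgre1 as Emr1, through RefSeq synonyms). Figures were drawn with matplotlib, and intervals with scipy.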

Additional observations from a re-analysis of the deposited data

How the results depend on the processing

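Each of the 34 members was refitted under 12 alternatives, and 27 kept the sign of their log2 fold change in all of them. The members that changed sign had groups that overlapped: when each library was left out in turn, Slc2a3 ran from -0.07 to 0.30, Hk1 from -0.09 to 0.64, Gpi1 from 0.00 to 0.35, Pfkm from -0.10 to 0.24, Pfkfb4 from -0.13 to 0.03, Pdk3 from -0.25 to 0.16 and Car9 from -0.27 to 0.24. Car9 was also 0.00 with no filter on low counts and 0.03 with limma voom. Since each symbol has 1 row, summing the rows of a symbol changes nothing.

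edgeR called 0 rows higher and 0 lower with all libraries, and DESeq2 called 333 and 294, 3 members among the higher (Slc16a1, Aldoc and Pdk1). With each library left out in turn, edgeR called 0 to 429 rows higher and 0 to 406 lower, the most without wild type 2, and 0 to 1 members higher. A lone library is assumed to vary like the other group. The members' median log2 fold change was 0.25 to 0.65 over the left-out libraries (0.25 without wild type 1) and 0.36 to 0.45 over the other settings. Both KPC libraries were higher for 18 to 20 members under the other scalings and filters, where 20.6% of all rows were with all libraries. With a library left out, an alternative added after the data were seen, 22 to 25 members were higher, but so were 31.2% to 38.6% of all rows; the members lower were 4 with all libraries and 5 to 7 then (7 without wild type 1), against 31.6% to 39.6% of all rows. Members higher at an unadjusted edgeR p under 0.05 were 3 without KPC 1, where 2.69% of all rows were, to 17 without wild type 2, where 9.28% were, and 0 to 3 lower, where 1.28% to 7.48% were, also an added alternative.

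With the replicate number as a block, edgeR called 0 rows, the median was 0.44, and 5 members were higher at an unadjusted p under 0.05 (5.12% of all rows), where 8 were without it (4.73% of all rows). The numbers do not establish pairs: with 2 pairs, the deviations of same-numbered libraries correlated at 0.136 over genes, and the labels name no shared batch. The share of Pdk1 was higher in KPC by 18.4 percentage points per kilobase of principal exons, by 24.8 with counts not divided by length and by 30.8 with the interval length. With all annotated exons the share was also higher in KPC, by somewhat less than with principal exons. The lowest count of a member in a library was 25, which limits Aldoc most, followed by Car9, Pdk4 and Ankrd37.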
